A study of Homo sapiens with 18 samples.

Results

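The rows described here are the structural and small nucleolar RNAs of LNCaP cells, an androgen-responsive human prostate cancer line. They were chosen by gene symbol: ribosomal RNA (RNA followed by a digit), 7SL and 7SK (RN7S), spliceosomal and U6-type RNA (RNU), Y RNA (RNY), RMRP, RPPH1, small Cajal body RNA (SCARNA) and small nucleolar RNA (SNORA, SNORD). The symbols matched 120 of 21391 features in the table of the inhibitor experiment and 44 of 18350 in the table of the siRNA experiment. All 44 carry identifiers that are also among the 120, so the rule found 120 identifiers of the 22027 in both tables. No Y RNA symbol was present in either table.

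The data are RNA sequencing libraries, 18 in all. Cells received 10 uM of UPF1069, olaparib or veliparib, which are inhibitors of poly(ADP-ribose) polymerases, or the solvent DMSO, for 24 h. In a separate experiment cells were transfected for 72 h with siPARP1_A, siPARP1_B, siPARP2_A or siPARP2_B, each an siRNA against the named gene, or with the control siRNA siNC. Each of the 9 groups had 2 libraries, called biological duplicates by the submitters, and all cells were grown in RPMI medium with 10% serum; a single cell line was used. Total RNA was the starting material, and whether poly(A) RNA was selected is not given in the sources used here.

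Most of these RNAs end without the poly(A) tail that messenger RNAs carry. 28S rRNA is part of the large ribosomal subunit, 7SL is the RNA core of the signal recognition particle, and 7SK holds the transcription kinase P-TEFb inactive. RMRP and RPPH1 are the RNA subunits of RNase MRP, which cuts ribosomal precursors, and RNase P, which trims transfer RNA precursors. C/D box snoRNAs (SNORD) mostly guide ribose methylation and H/ACA box snoRNAs (SNORA) pseudouridylation of ribosomal RNA, while SCARNAs guide the same changes in spliceosomal RNA. Most human snoRNAs are cut from introns of host genes, some of which, such as the SNHG genes, make no known protein.

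Library depth was 26.4 to 35.7 M reads in the inhibitor experiment and 15.5 to 18.6 M reads in the siRNA experiment. Levels are counts per M reads (CPM) in the first table and normalised reads per M in the second. The limit that a count of 0 allows, 3 reads, was 0.0841 to 0.113 CPM in the first and 0.169 to 0.207 in the second, for counting error only. In bulk RNA, fewer cells of a type and less RNA per cell cannot be told apart. PARP1 stood at 4.78 and 5.67 normalised reads per M with siPARP1_A and at 8.99 and 9.05 with siPARP1_B, against 452 and 479 with siNC. PARP2 stood at 3.06 and 2.56 with siPARP2_A and at 1.78 and 1.01 with siPARP2_B, against 28.96 and 25.84 with siNC; PARP1 was also at 160 and 145 with siPARP2_B. All 8 prostate luminal markers were listed in both tables, and summed to between 2360 and 4375 CPM per inhibitor library and between 1578 and 5181 normalised reads per siRNA library. The basal markers KRT5 and TP63, the stromal COL1A2 and DCN, the T cell marker CD3E and the neuroendocrine CHGA were listed in neither table. Other stromal and neuroendocrine markers were present. In CPM, COL1A1 ranged from 9.90 to 13.97, VIM from 2.45 to 4.91, ENO2 from 22.04 to 35.65 and SYP from 1.55 to 3.15. After siRNA transfection the ranges were 0.829 to 3.81, 2.24 to 32.23, 4.27 to 16.85 and 0.875 to 3.86. VIM was highest with siPARP2_B, at 31.4 and 32.2, and lowest with siPARP1_A, at 2.24 and 2.29, against 7.47 and 6.20 with siNC.

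The symbol often named an RNA other than the one its identifier stands for. By Ensembl identifier in GENCODE release 29, 91 of the 120 rows of the inhibitor table were the small or structural RNA itself, 25 were another gene and 4 identifiers were not in that release. Of the 25, 16 held the named small RNA inside the gene on the same strand, 3 held it on the opposite strand, 1 overlapped it in part, 1 did not overlap it, and for 4 the named gene was not in the release. For example, the row named SNORD21 was RPL5, a ribosomal protein gene, the row named SNORD81 was GAS5, and the row named SNORA73A was SNHG3. The row named RPPH1 was AL355075.4, a longer transcript that contains RPPH1, so its reads cannot be assigned to RNase P RNA alone. In the siRNA table all 44 rows were the small RNA itself. Of the other 76 identifiers, 59 were absent there, 10 carried the symbol of the host gene and 7 carried none.

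The true small RNA rows were low in every library. Their median mean level was 0.214 CPM over 91 rows in the inhibitor table and 0.185 normalised reads per M over 44 rows in the siRNA table, and 15 and 23 of these rows had at least 1 library at 0. The 25 rows of other genes had a median of 16.3 CPM, with RPL5 at 1073 CPM. A mean of at least 1 was reached by 29 of the 120 rows: 7 of the 91 small RNAs, 19 of the 25 other genes and 3 of the 4 unmatched identifiers. Only 2 of 44 rows, SNORD104 and SNORD17, reached it in the siRNA table.

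**Figure D1:**
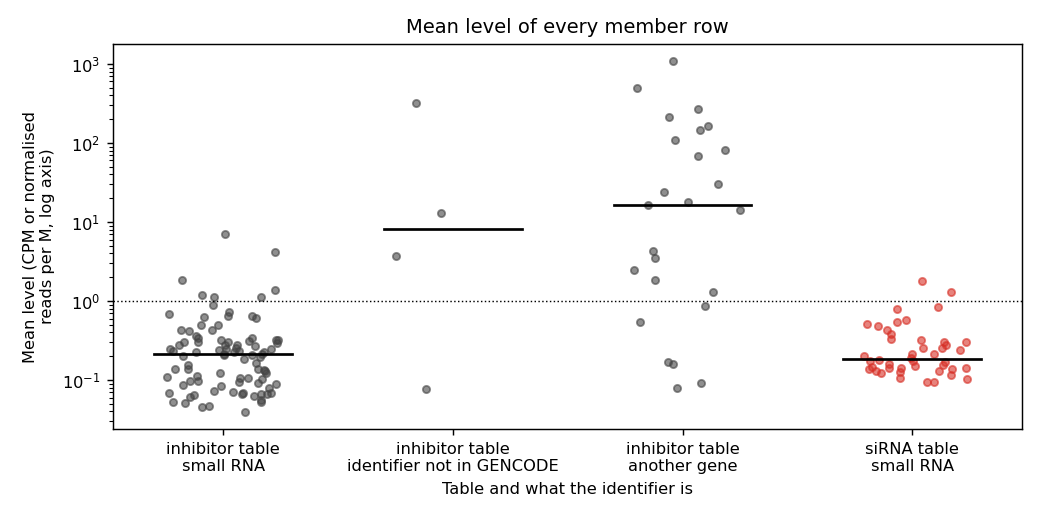
Mean level of every member row, one point per row on a log axis (CPM for the inhibitor table, normalised reads per M for the siRNA table), with the median of each class as a bar and the minimum mean of 1 for testing as a dotted line. Most small RNA rows lie below the dotted line, with medians of 0.214 CPM and 0.185 normalised reads per M, while the rows that are another gene by identifier have a median of 16.3 CPM.

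The sequences below are GENCODE release 29 transcripts (GRCh38). They are shown because these rows were tested or stand for their class: 7SK and RMRP moved with every inhibitor, SNORD3A (U3) with UPF1069, SNORD108 with veliparib, and SNORD104 and SNORD60 passed no test against a control in the main analysis. RN7SK lies on chromosome 6 and is given by its first 120 of 331 bases, RMRP on chromosome 9 with 268 bases, and SNORD3A on chromosome 17 with 217 bases. In SNORD104 (chromosome 17), SNORD60 (chromosome 16), SNORD108 (chromosome 15) and SNORD116-24 (chromosome 15) capitals mark the first TGATGA, the core of the C box, and the last CTGA, the D box, where found. In SNORA26 (chromosome 4) capitals mark the ACA near the 3′ end.
RN7SK, first 120 bases: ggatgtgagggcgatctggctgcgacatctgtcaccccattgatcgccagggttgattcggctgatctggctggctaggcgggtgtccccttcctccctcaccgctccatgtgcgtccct
RMRP: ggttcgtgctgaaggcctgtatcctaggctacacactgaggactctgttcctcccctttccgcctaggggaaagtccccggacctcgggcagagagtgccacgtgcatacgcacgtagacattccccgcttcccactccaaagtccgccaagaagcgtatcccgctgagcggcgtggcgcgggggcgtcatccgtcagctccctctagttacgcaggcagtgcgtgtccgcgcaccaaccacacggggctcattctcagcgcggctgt
SNORD3A: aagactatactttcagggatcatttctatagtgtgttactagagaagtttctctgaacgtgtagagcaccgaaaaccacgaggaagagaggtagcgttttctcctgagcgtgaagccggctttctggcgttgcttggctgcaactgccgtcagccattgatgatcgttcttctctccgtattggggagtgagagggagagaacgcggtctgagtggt
SNORD104: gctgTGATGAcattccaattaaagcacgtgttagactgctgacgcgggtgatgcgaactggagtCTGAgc
SNORD60: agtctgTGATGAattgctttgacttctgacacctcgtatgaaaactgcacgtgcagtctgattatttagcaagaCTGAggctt
SNORD108: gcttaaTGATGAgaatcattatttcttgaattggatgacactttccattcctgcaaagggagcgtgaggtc
SNORD116-24: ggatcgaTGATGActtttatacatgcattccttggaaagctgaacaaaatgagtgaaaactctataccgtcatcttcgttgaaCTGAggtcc
SNORA26: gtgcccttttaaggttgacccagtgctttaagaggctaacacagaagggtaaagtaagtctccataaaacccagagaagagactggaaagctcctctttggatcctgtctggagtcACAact

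Among 384 snoRNA transcripts of 60 to 100 bases in the release, 61.5% held TGATGA on the transcript strand and 2.34% on the opposite strand, and 89.8% and 22.1% held CTGA. Among 345 snoRNA transcripts of 120 to 140 bases, 72.2% held ACA within the last 8 bases, against 10.4% on the opposite strand. SNORD108 has no CTGA in these letters. The symbol RNU6-1 stands on 2 rows of the inhibitor table, RNU6-8 and RNU6-2 by identifier. Reads of such copies, of the 9 SNORD116 rows, whose transcripts are 77.1% to 99.0% identical in pairs, and of 28S rRNA and 7SL, which have many near-identical copies in the genome, are uncertain as to their copy.

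RNA28S5, RN7SL1 and RN7SK were highest with veliparib. RNA28S5, listed for 28S rRNA, stood at 171 and 221 CPM with UPF1069, at 234 and 124 CPM with olaparib and at 743 and 805 CPM with veliparib, against 118 and 115 CPM with DMSO. Both veliparib libraries lay above all 6 others, and no inhibitor library overlapped DMSO. On the log2(CPM + 1) scale used for all fold changes, which understates changes of low rows, the change was 2.72 with veliparib (SE 0.15, limma, adjusted p = 4.01e-11), 0.73 with UPF1069 (adjusted p = 0.00136) and 0.54 with olaparib (adjusted p = 0.00524). As a ratio of mean CPM, the RNA28S5 row was 6.63 times the DMSO level with veliparib, 1.68 times with UPF1069 and 1.53 times with olaparib.

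RN7SL1, listed for 7SL RNA by an identifier not in the release, stood at 6.65 and 6.92 CPM with UPF1069, at 16.4 and 4.51 CPM with olaparib and at 27.9 and 31.1 CPM with veliparib, against 4.46 and 4.53 CPM with DMSO. The olaparib libraries lay apart, 1 above UPF1069 and 1 within the DMSO range. The log2 fold change was 2.47 with veliparib (limma, adjusted p = 2.11e-07) and 0.83 with olaparib (adjusted p = 0.0113), and 0.50 with UPF1069 did not pass (adjusted p = 0.181).

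RN7SK, the 7SK RNA, stood at 0.946 and 1.31 CPM with UPF1069, at 1.03 and 0.588 CPM with olaparib and at 2.32 and 2.83 CPM with veliparib, against 0.242 and 0.294 CPM with DMSO. These values rest on few reads: 30 and 42, 34 and 21, and 65 and 75 in the inhibitor groups in that order, against 7 and 10 with DMSO. No group overlapped DMSO, and the log2 fold change was 0.74 with UPF1069 (limma, adjusted p = 0.000791), 0.50 with olaparib (adjusted p = 0.00672) and 1.49 with veliparib (adjusted p = 6.83e-08). The ratio of mean CPM to DMSO was 4.22, 3.02 and 9.61 for UPF1069, olaparib and veliparib. The RN7SK mean of 1.20 CPM over the inhibitor experiment passed the minimum of 1 only through the veliparib libraries. The RN7SK tests with veliparib, here and below, therefore concern a row admitted by the group where it was highest.

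RMRP, the RNase MRP RNA, rose with each inhibitor. It stood at 1.77 and 3.47 CPM with UPF1069, at 2.06 and 1.26 CPM with olaparib and at 1.68 and 3.40 CPM with veliparib, against 0.484 and 0.794 CPM with DMSO. The log2 fold change was 1.11, 0.69 and 1.07 for UPF1069, olaparib and veliparib, with limma adjusted p values of 0.000444, 0.00794 and 0.00028. The row named RPPH1 stood at 2.02 and 3.16 CPM with UPF1069, at 3.96 and 1.71 CPM with olaparib and at 2.54 and 3.70 CPM with veliparib, against 1.18 and 1.47 CPM with DMSO. All inhibitor libraries lay above DMSO, and the log2 fold change was 0.61, 0.66 and 0.81, with limma adjusted p values of 0.0282, 0.00781 and 0.00239.

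Olaparib replicate 1 lay above replicate 2 in all 5 of these rows, while replicate 2 was the higher one with UPF1069 and veliparib. Without olaparib replicate 1 the log2 fold change with olaparib was 0.09 for RNA28S5 (limma, adjusted p = 0.471), 0.00 for RN7SL1 (adjusted p = 0.979), 0.33 for RN7SK (adjusted p = 0.143), 0.47 for RMRP (adjusted p = 0.16) and 0.22 for the RPPH1 row (adjusted p = 0.375), so none of these olaparib calls held. Without DMSO replicate 1 the olaparib calls of RN7SL1, RMRP and the RPPH1 row were also lost (adjusted p = 0.0514, 0.0877 and 0.0697). With UPF1069, the RNA28S5 call was lost without UPF1069 replicate 2 (log2 fold change 0.54, adjusted p = 0.0616), and the RPPH1 call without UPF1069 replicate 2 or either DMSO library (adjusted p = 0.337, 0.181 and 0.0635). DESeq2 on the recovered reads did not call RNA28S5 with UPF1069 or olaparib (adjusted p = 0.123 and 0.139), RN7SL1 or RMRP with olaparib (0.106 and 0.0634), or the RPPH1 row with UPF1069, olaparib or veliparib (0.237, 0.0876 and 0.0626). The veliparib calls of RNA28S5, RN7SL1, RN7SK and RMRP held in every alternative run.

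**Figure D2:**
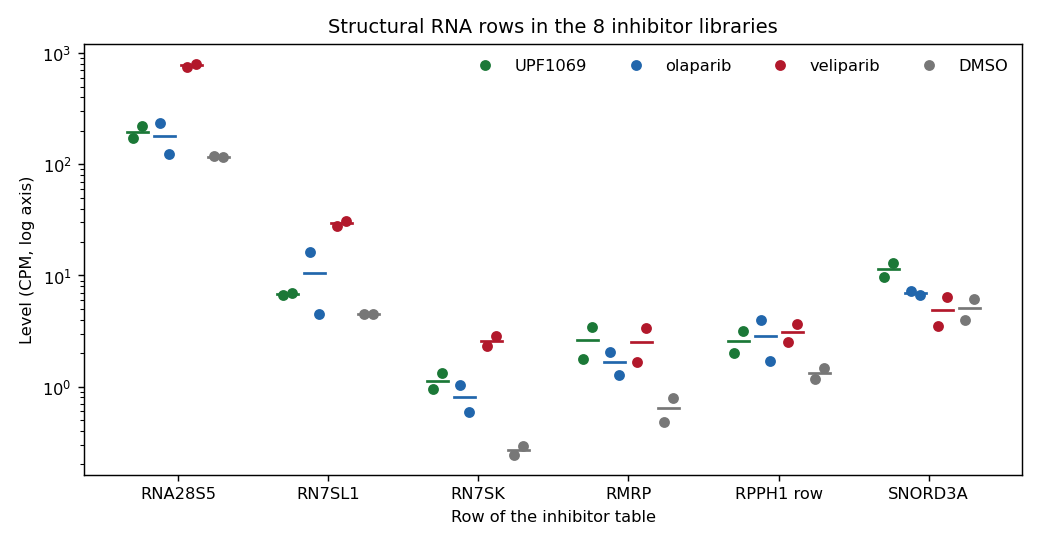
Level in CPM (log axis) of 6 structural RNA rows in the 8 inhibitor libraries, 1 point per library and a bar at the mean of 2, for UPF1069, olaparib, veliparib and DMSO from left to right. RNA28S5 and RN7SL1 are highest with veliparib (743 and 805, and 27.9 and 31.1 CPM), SNORD3A is highest with UPF1069 (9.71 and 13.0 CPM), and the olaparib libraries lie apart in RNA28S5 and RN7SL1.

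Between inhibitors, tested over 3 pairs, RNA28S5 differed by 1.99 between veliparib and UPF1069 and by 2.17 between veliparib and olaparib (limma, adjusted p = 1.07e-09 and 6.04e-11). UPF1069 against olaparib gave 0.19 with a 95% interval of -0.13 to 0.51 (adjusted p = 0.327). RN7SK differed by 0.75 and 0.99 for the same veliparib pairs (adjusted p = 0.000223 and 5.24e-06). RMRP did not pass in any pair: veliparib against UPF1069 gave -0.04 with an interval of -0.47 to 0.40, and UPF1069 against olaparib 0.42 with an interval of -0.01 to 0.85. The inhibitor comparisons share the 2 DMSO libraries, and all 3 compounds were given at the same dose and for the same time.

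SNORD3A, the U3 snoRNA needed for the first cuts of the ribosomal precursor, followed another order. It stood at 9.71 and 13.0 CPM with UPF1069, at 7.29 and 6.67 CPM with olaparib and at 3.50 and 6.34 CPM with veliparib, against 3.98 and 6.21 CPM with DMSO. UPF1069 raised it by 1.03 (SE 0.17, limma, adjusted p = 0.000122), and veliparib libraries overlapped DMSO (log2 fold change -0.06, adjusted p = 0.813). Veliparib differed from UPF1069 by -1.09 (adjusted p = 1.75e-05) and from olaparib by -0.47 (adjusted p = 0.0214). The olaparib change against DMSO of 0.41 passed narrowly (adjusted p = 0.0472) and was lost without either olaparib library (adjusted p = 0.224 and 0.112) and without DMSO replicate 1 (0.566). SNORD108 stood at 1.36 and 0.595 CPM with UPF1069, at 0.847 and 0.841 CPM with olaparib and at 1.61 and 2.11 CPM with veliparib, against 0.761 and 0.882 CPM with DMSO. It rose with veliparib (0.65, limma, adjusted p = 0.00252). Veliparib against UPF1069 and against olaparib gave 0.56 and 0.63 (limma, adjusted p = 0.00579 and 0.00175). The SNORD108 mean of 1.13 CPM passed the minimum of 1 only through the veliparib libraries, so these tests concern a row admitted by that group. SNORD17 stood at 1.03 and 1.04 CPM with olaparib, against 1.49 and 1.62 CPM with DMSO (-0.33, limma, adjusted p = 0.0372), a call lost without any 1 of these 4 libraries (adjusted p = 0.0773 to 0.157). SNORD104 and SNORD60 passed no test against DMSO.

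In counts, 7 of the 29 tested rows rose and 4 fell with UPF1069 (limma), where 24.3% of all 13337 genes were called, 10.3% up and 14.0% down. With olaparib 10 rose and 5 fell, beside 52.5% of genes (25.8% up, 26.8% down), and with veliparib 16 rose and 3 fell, beside 40.4% (17.2% up, 23.2% down). The median log2 fold change of the 29 rows was 0.02, 0.02 and 0.14 for UPF1069, olaparib and veliparib, against -0.02, 0.00 and 0.00 over all genes tested. Of the 7 small RNAs tested, 3 rose with UPF1069, 3 rose and 1 fell with olaparib, and 3 rose with veliparib. RN7SK and SNORD108 were tested only because their veliparib libraries lifted the mean over the minimum, so the filter favours the count with veliparib. For UPF1069 against olaparib 2 rows were higher and 3 lower, beside 51.2% of genes (24.2% up, 27.0% down). For veliparib against olaparib 13 were higher and 3 lower, beside 59.5% (27.7% up, 31.7% down), and for veliparib against UPF1069 likewise 13 and 3, beside 50.8% (24.9% up, 25.9% down). With olaparib the share of rows called lay near that of all genes.

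**Figure D3:**
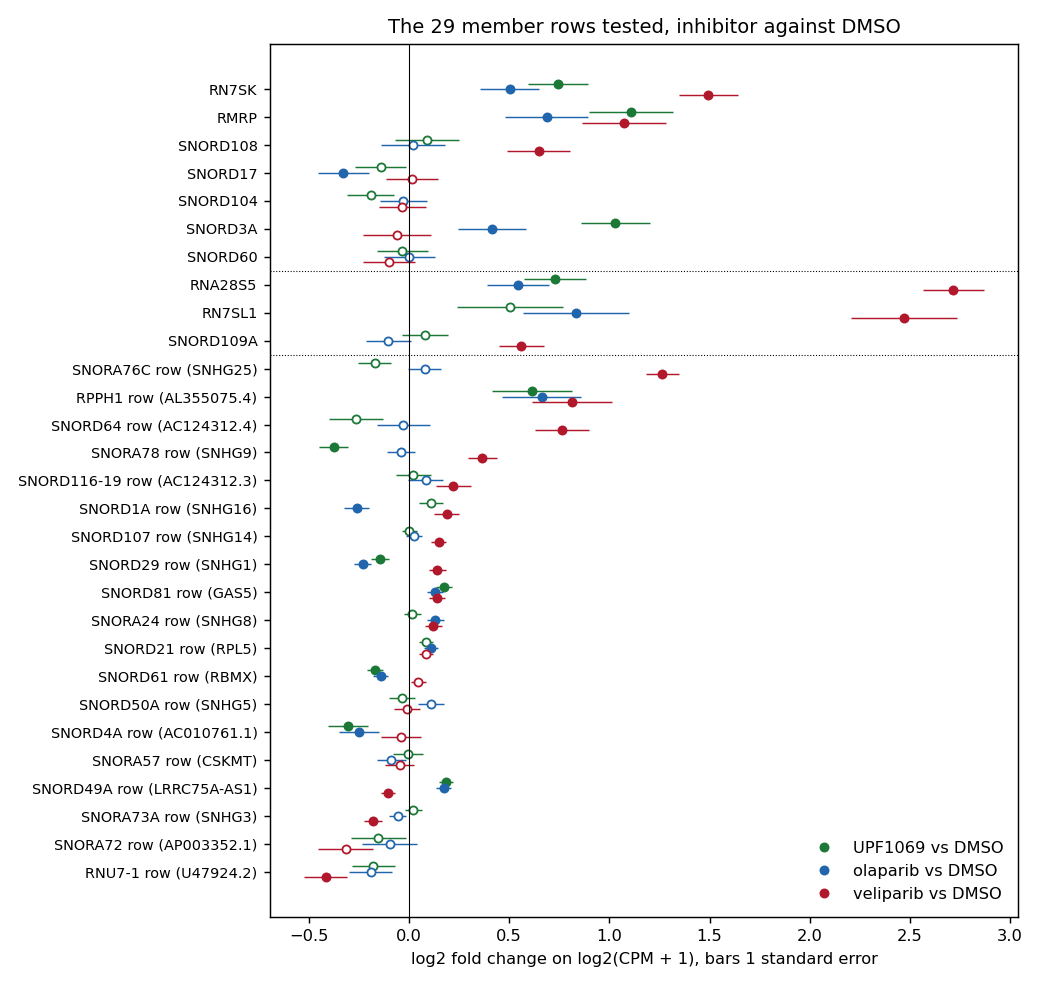
log2 fold change on log2(CPM + 1) of the 29 tested rows with UPF1069, olaparib and veliparib against DMSO, filled where the limma adjusted p is below 0.05, with bars of 1 standard error. Small RNAs are at the top, unmatched identifiers in the middle and rows that are another gene at the bottom, the gene by identifier in brackets. RNA28S5 and RN7SL1 with veliparib, at 2.72 and 2.47, lie farthest from 0.

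Among the rows that are another gene, SNHG25 had the largest change with veliparib. SNHG25, listed as SNORA76C, stood at 8.38 and 9.58 CPM with UPF1069, at 10.6 and 11.1 CPM with olaparib and at 26.3 and 25.7 CPM with veliparib, against 9.37 and 11.1 CPM with DMSO. Only the veliparib libraries lay apart (log2 fold change 1.27, limma, adjusted p = 3.13e-10), and both other inhibitors missed the threshold (adjusted p = 0.147 and 0.458). SNHG9, listed as SNORA78, was lower with UPF1069, at 22.3 and 23.4 CPM, and higher with veliparib, at 35.5 and 42.7 CPM, against 28.6 and 31.4 CPM with DMSO (log2 fold changes -0.38 and 0.37, adjusted p = 0.000442 and 0.000265). LRRC75A-AS1, listed as SNORD49A, was higher by 0.19 with UPF1069 and by 0.17 with olaparib (adjusted p = 0.000753 and 0.00042). The highest rows were RPL5 at 1071 and 1097 CPM with UPF1069, 1106 and 1102 CPM with olaparib and 1088 and 1080 CPM with veliparib, against 1013 and 1031 CPM with DMSO, and LRRC75A-AS1 at 526 and 538, 530 and 525, and 444 and 426 CPM in that order, against 460 and 476 CPM with DMSO. SNHG14 had 262 and 267, 260 and 278, and 295 and 291 CPM, against 266 and 262 CPM with DMSO, and GAS5 had 220 and 221, 218 and 209, and 209 and 221 CPM, against 192 and 198 CPM with DMSO. GAS5 lay above DMSO in all 6 inhibitor libraries, and SNHG14 in both veliparib libraries. RBMX, an RNA-binding protein gene listed as SNORD61, had 154.4 and 153.8, 155.5 and 158.9, and 182.7 and 175.8 CPM, against 172.3 and 174.8 CPM with DMSO; SNHG8, listed as SNORA24, had 139.1 and 138.4, 155.2 and 145.6, and 150.1 and 148.3 CPM, against 133.1 and 141.4 CPM with DMSO. SNHG3 had 116.2 and 115.8, 112.8 and 107.01, and 101.04 and 100.5 CPM, against 110.6 and 118.2 CPM with DMSO. SNHG3 was lower with veliparib (-0.18, adjusted p = 0.00199), a call lost without DMSO replicate 2 (adjusted p = 0.0749). SNHG16 had 89.7 and 84.7, 70.5 and 64.1, and 84.5 and 100.4 CPM, against 82.0 and 79.5 CPM with DMSO, and SNHG1, listed as SNORD29, had 65.0 and 63.6, 60.01 and 60.9, and 78.4 and 78.9 CPM, against 70.5 and 71.9 CPM with DMSO. Olaparib lowered both SNHG16 and SNHG1 (-0.26 and -0.23, adjusted p = 0.00106 and 0.000108), and the SNHG16 call was lost without olaparib replicate 2 (-0.19, adjusted p = 0.0516).

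Over all 19 other-gene rows tested, 3 rose and 4 fell with UPF1069, 5 rose and 4 fell with olaparib, and 10 rose and 3 fell with veliparib (limma), beside 24.3%, 52.5% and 40.4% of all genes called in that order.

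Some rows of the imprinted region of chromosome 15 that SNHG14 spans, chosen after their values were seen, were higher with veliparib. SNHG14 itself, listed as SNORD107, changed by 0.15 (limma, adjusted p = 0.00366) and AC124312.4, listed as SNORD64, by 0.76 (adjusted p = 9.94e-05). SNORD108, which passed the minimum mean only through its veliparib libraries, changed by 0.65, as given above. SNORD109A, whose identifier is not in the release, changed by 0.56 (adjusted p = 0.00044). It stood at 3.41 and 3.44 CPM with UPF1069, at 3.06 and 2.75 CPM with olaparib and at 5.86 and 4.57 CPM with veliparib, against 3.35 and 3.03 CPM with DMSO. AC124312.4 stood at 1.01 and 1.22, 1.60 and 1.37, and 3.79 and 2.87 CPM in the same order, against 1.35 and 1.74 CPM with DMSO. AC124312.3, listed as SNORD116-19, stood at 15.7 and 15.3, 16.8 and 15.7, and 16.6 and 19.4 CPM in that order, against 16.9 and 13.8 CPM with DMSO, and the veliparib and DMSO libraries overlapped. Its change with veliparib of 0.22 passed narrowly (limma, adjusted p = 0.0448) and was lost in 7 alternatives, among them without DMSO replicate 2 (adjusted p = 0.567) and without veliparib replicate 2 (0.245). The 9 SNORD116 rows, of the cluster lost in Prader-Willi syndrome, were all below the minimum mean, and their sum was 0.977 and 1.25 CPM with UPF1069, 1.15 and 1.12 CPM with olaparib and 1.71 and 2.0002 CPM with veliparib, against 1.31 and 1.47 CPM with DMSO.

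The 84 small RNA rows below the minimum mean were described by sums and by a count test on recovered reads. Their summed level was 1.27 times that of DMSO with veliparib, 0.965 times with UPF1069 and 0.932 times with olaparib, given without a test since 2 libraries against 2 cannot pass an exact permutation test at 0.05. With veliparib 25 of these 84 rows had both libraries above both DMSO libraries and 2 had both below, where 20.9% and 16.7% of all features below a mean of 1 did so. With UPF1069 the counts were 15 above and 18 below, beside 19.4% and 18.6%, and with olaparib 9 above and 17 below, beside 18.6% and 24.5%. With UPF1069 and olaparib the share of rows above DMSO lay near or below that of the other low features.

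By class, the snRNA and SCARNA rows had their highest sums with veliparib. The 6 snRNA rows summed to 0.757 and 1.002 CPM with UPF1069, 1.09 and 1.40 CPM with olaparib and 2.25 and 2.30 CPM with veliparib, against 0.968 and 1.21 CPM with DMSO. The 8 SCARNA rows summed to 1.89 and 1.60, 1.85 and 2.05, and 2.32 and 3.70 CPM in that order, against 1.18 and 1.91 CPM with DMSO. Both veliparib libraries lay above all 6 others in both sums, but for the SCARNA rows this rests on SCARNA22. Without it the other 7 SCARNA rows summed to 1.48 and 1.31 CPM with UPF1069, 1.48 and 1.46 CPM with olaparib and 1.46 and 2.0002 CPM with veliparib, against 0.968 and 1.12 CPM with DMSO, and veliparib overlapped the other inhibitors. The 44 SNORD rows had their highest sum with UPF1069: 25.1 and 28.2 CPM with UPF1069, 23.0 and 20.9 CPM with olaparib and 22.6 and 24.7 CPM with veliparib, against 18.4 and 24.1 CPM with DMSO, and olaparib and veliparib overlapped DMSO. The order rests on SNORD3A, which held 9.71 and 13.0 CPM of the UPF1069 sums, against 3.98 and 6.21 CPM with DMSO. Without SNORD3A the UPF1069 sums lay within the DMSO range and the veliparib sums were the highest. The 31 SNORA rows, which include no row above the minimum mean, summed to 6.81 and 6.89 CPM with UPF1069 and 6.42 and 6.05 CPM with olaparib, both below DMSO, and to 7.36 and 8.72 CPM with veliparib, against 7.36 and 7.62 CPM with DMSO.

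With edgeR on recovered reads and a minimum mean of 0.2, an alternative chosen after the data were seen, 73 rows were tested in the inhibitor table. Of these, 21 rose and 2 fell with veliparib against DMSO, beside 31.9% of 16938 genes called; 8 rose and 3 fell with UPF1069, beside 19.0% (9.99% up, 9.03% down), and 10 rose and 5 fell with olaparib, beside 45.1%. Of the 49 small RNAs, 6 rose with veliparib, beside 15.6% of all genes up and 16.3% down. Besides RN7SK, RMRP and SNORD108 these were RNU6-8, a U6 copy, at 1.0004 and 1.21 CPM with veliparib, against 0.415 and 0.677 CPM with DMSO (log2 fold change 1.001, edgeR, adjusted p = 0.0128), SCARNA22 at 0.857 and 1.70 CPM with veliparib, against 0.207 and 0.794 CPM with DMSO (1.29, adjusted p = 0.0104), and SNORD12B at 0.715 and 0.453 CPM with veliparib, against 0.207 and 0.294 CPM with DMSO (1.21, adjusted p = 0.0253). For UPF1069 against olaparib 4 were higher and 2 lower, beside 43.2% of genes (22.0% up, 21.2% down). With olaparib the small RNAs SNORA13 and SNORD17 fell (-1.41 and -0.58, edgeR, adjusted p = 0.0477 and 0.0361). SNORA13 rests on 1 and 7 reads with olaparib, against 8 and 12 with DMSO. Olaparib replicate 1, at 0.0303 CPM, lay below its 3-read limit of 0.0908 CPM.

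Of 5 other RNAs chosen as lacking a usual poly(A) tail in at least some forms, TERC, NEAT1 and MALAT1 were highest with olaparib, and BCYRN1 and VTRNA1-3 with veliparib. Each row sums all forms of its gene, so tailed and untailed forms of NEAT1 cannot be told apart. TERC, the telomerase RNA, rose with olaparib: it stood at 0.883 and 0.814 CPM with UPF1069, at 2.81 and 2.86 CPM with olaparib and at 0.572 and 0.642 CPM with veliparib, against 0.899 and 0.824 CPM with DMSO (olaparib log2 fold change 1.04, limma, adjusted p = 4.31e-07). All TERC values outside olaparib lay below 1 CPM. The row passed the minimum mean of 1 only through olaparib, the group where it was highest. NEAT1, the RNA scaffold of paraspeckles, rose with UPF1069 by 0.60 and with olaparib by 0.97 (adjusted p = 8.49e-11 and 1.56e-15), and 0.08 with veliparib did not pass (adjusted p = 0.0767). MALAT1, a nuclear noncoding RNA, stood at 1219 and 1155 CPM with UPF1069, 1606 and 1499 CPM with olaparib and 1128 and 1348 CPM with veliparib, against 961 and 953 CPM with DMSO, and rose with each (0.31, 0.70 and 0.37, limma, adjusted p = 0.000293, 5.95e-10 and 2.04e-05). BCYRN1, a short neuronal RNA made by RNA polymerase III, rose with olaparib by 0.25 and with veliparib by 0.57 (adjusted p = 0.0043 and 8.50e-07). VTRNA1-3, a vault RNA below the minimum mean and so not tested, stood at 0.315 and 0.532 CPM with UPF1069, 0.333 and 0.476 CPM with olaparib and 1.25 and 1.02 CPM with veliparib, against 0.242 and 0.500 CPM with DMSO, and both veliparib libraries lay above the 6 others. Of 21 tested genes with HIST symbols, which encode mainly replication-dependent histones, 10 fell with UPF1069, 11 rose and 3 fell with olaparib, and 5 rose and 1 fell with veliparib (limma), beside 24.3%, 52.5% and 40.4% of all genes called. How much untailed RNA each library carried over was not measured apart from these rows, and its part in the results was not tested.

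In the siRNA experiment the row listed as RNA28S5 for the inhibitors carries no symbol and was found by identifier. That identifier is not in the GENCODE release, so the name 28S rRNA rests on the inhibitor symbol alone. The row was higher with all 4 siRNAs, on 100 to 160 reads per library, against 67 in each siNC library. It stood at 9.67 and 7.45 normalised reads per M with siPARP1_A, 6.93 and 6.91 with siPARP1_B, 7.95 and 7.32 with siPARP2_A and 9.10 and 8.23 with siPARP2_B, against 4.35 and 3.85 with siNC. No group overlapped siNC, and the log2 fold change was 0.90, 0.64, 0.76 and 0.92 in that order (limma, adjusted p = 3.7e-06, 0.000486, 4.46e-05 and 1.47e-06), beside 54.4%, 40.4%, 49.4% and 66.1% of 12701 genes called. These comparisons share the 2 siNC libraries. The calls held in every alternative, with adjusted p values up to 0.0109. RN7SK, below the minimum mean, stood at 0.423 and 0.382 with siPARP1_A, 0.466 and 0.207 with siPARP1_B, 0.550 and 0.375 with siPARP2_A and 0.238 and 0.338 with siPARP2_B, against 0.065 and 0.172 normalised reads per M with siNC. These values rest on 7 and 6, 7 and 3, 9 and 6, and 4 and 6 reads in that order, against 1 and 3 with siNC.

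The small RNA rows themselves were called against siNC in no comparison by limma: of the 2 tested rows, SNORD104 and SNORD17, 0 had an adjusted p below 0.05 for siPARP1_A, siPARP1_B, siPARP2_A or siPARP2_B, and 1 had an unadjusted p below 0.05, with siPARP2_B. The edgeR and DESeq2 tests on the same 2 rows also called 0. Limma with a pseudocount of 0.25 called 1 row with siPARP2_B, and with a minimum mean of 0.2, which tests more rows, it called 1 with siPARP2_A and 3 with siPARP2_B. SNORD17 stood at 1.63 and 1.91 normalised reads per M with siPARP1_A, 0.999 and 1.11 with siPARP1_B, 1.65 and 1.69 with siPARP2_A and 0.714 and 0.733 with siPARP2_B, against 1.36 and 1.09 with siNC. The siRNAs against 1 target differed in it: siPARP2_A against siPARP2_B gave 0.63 and siPARP1_A against siPARP1_B 0.43 on the log2 scale, each the 1 row of 2 called (limma), beside 64.8% and 54.8% of genes, and the siPARP1 call was lost without any 1 of its 4 libraries. SNORD104 was not called in either.

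The sum of all 44 small RNA rows had its lowest mean with siPARP2_B. It was 16.4 and 14.9 normalised reads per M with siPARP1_A, 13.2 and 12.8 with siPARP1_B, 14.2 and 15.9 with siPARP2_A and 11.7 and 9.30 with siPARP2_B, against 14.7 and 14.2 with siNC. The ratio to siNC was 1.08, 0.898, 1.04 and 0.725, and on this deposited scaling the siPARP2_B libraries lay below all 8 others. As a share of each library's reads they did not: siPARP2_B had 0.00121% and 0.000946%, siPARP1_B 0.00124% and 0.00120%, against 0.00132% and 0.00133% with siNC, and the ratio of siPARP2_B to siNC was 0.814. Of the 42 rows below the minimum mean, 13 lay below and 4 above siNC in both siPARP2_B libraries, beside 22.1% and 27.6% of all features below a mean of 1. With siPARP1_A 8 lay above and 6 below, beside 26.9% and 17.2%. With siPARP1_B 9 lay above and 6 below, beside 29.6% and 12.9%. With siPARP2_A 8 lay above and 2 below, beside 19.9% and 20.8%. In edgeR with a minimum mean of 0.2, 3 of 20 rows fell with siPARP2_B, beside 57.3% of 15903 genes called: SNORD60 at 0.297 and 0.451 with siPARP2_B, against 1.49 and 0.632 with siNC (-1.45, adjusted p = 0.0175), SNORA26 at 0.416 and 0.225 with siPARP2_B, against 0.649 and 0.919 with siNC (-1.29, adjusted p = 0.0274), and RNU6ATAC, the U6-type RNA of the minor spliceosome, whose groups overlapped (-2.39, adjusted p = 0.0437). In the same test 1 row, RN7SK, was called higher with siPARP2_A (1.85, adjusted p = 0.0412), beside 40.3% of genes. That call rests on 9 and 6 reads, against 1 and 3 with siNC. With siPARP1_A and siPARP1_B 0 rows were called, with 1 and 0 at an unadjusted p below 0.05, beside 46.1% of genes (21.8% up, 24.3% down) and 32.5% of genes. Between siPARP1_A and siPARP1_B this test called 0 of the 20 rows, with 1 at an unadjusted p below 0.05, beside 45.7% of genes.

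**Figure D4:**
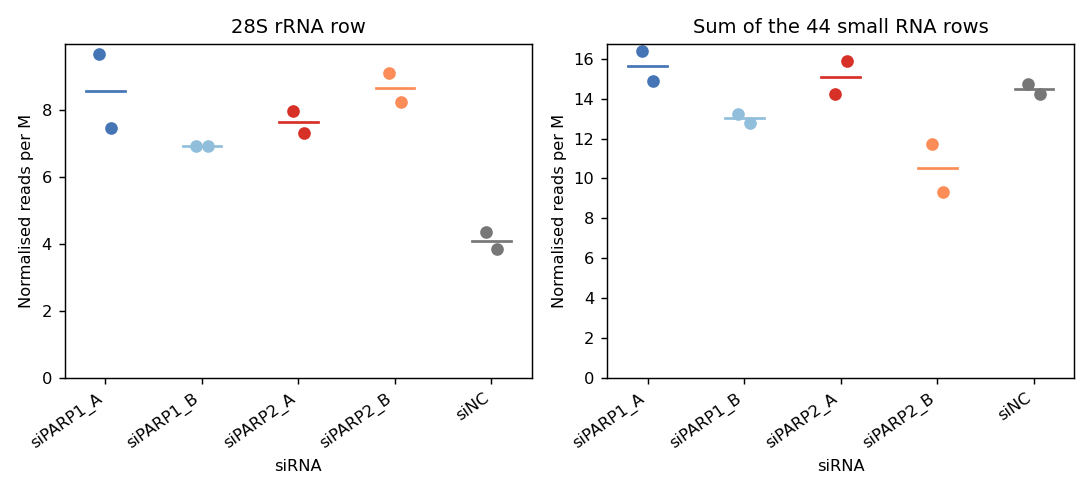
Level of the row listed as RNA28S5 for 28S rRNA in the inhibitor table, found by identifier (left), and the sum of the 44 small RNA rows (right) in normalised reads per M, for 10 siRNA libraries, 1 point per library and a bar at the mean of 2, with siPARP1_A, siPARP1_B, siPARP2_A and siPARP2_B left of siNC. All 8 knockdown libraries exceed siNC in the 28S row, while the small RNA sum on the deposited scaling is lowest with siPARP2_B (11.7 and 9.30).

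The genes that carry a small RNA symbol in the inhibitor table could be followed in the siRNA table by identifier, where 13 passed the filter. With siPARP2_B 9 of the 13 fell and 0 rose (limma, median log2 fold change -0.43, against -0.03 over all genes), where 35.2% of genes fell and 30.9% rose. CSKMT, a methyltransferase gene listed as SNORA57 in the inhibitor table, stood at 4.34 and 3.89 normalised reads per M with siPARP2_B, against 10.7 and 13.6 with siNC (-1.35, adjusted p = 1.19e-09). SNHG3 stood at 23.1 and 23.0 with siPARP2_B, against 61.6 and 56.5 with siNC (-1.32, adjusted p = 4.86e-14). LRRC75A-AS1 stood at 405 and 389 with siPARP2_B, against 686 and 688 with siNC (-0.79, adjusted p = 1.31e-12). GAS5 fell by 0.69 on the log2 scale (adjusted p = 4.56e-10), and the SNHG1 call was lost without siPARP2_B replicate 2 (-0.13, adjusted p = 0.246). With siPARP2_A 6 of the 13 rose and 1, SNHG3, fell (lost without siNC replicate 1 or siPARP2_A replicate 1, adjusted p = 0.0634 and 0.0881), with a median of 0.18, beside 24.5% of genes up and 24.9% down. In the direct comparison of siPARP2_A with siPARP2_B 11 of the 13 were higher and 0 lower, beside 34.3% and 30.6% of genes.

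SNHG16, the host of SNORD1 snoRNAs, changed in opposite directions with the 2 siRNAs of each target. It stood at 109.98 and 118.9 normalised reads per M with siPARP1_A, 59.3 and 58.6 with siPARP1_B, 116.2 and 126.3 with siPARP2_A and 60.1 and 54.2 with siPARP2_B, against 79.3 and 82.1 with siNC. Both A siRNAs raised it (0.50 and 0.58, limma, adjusted p = 9.74e-07 and 1.36e-07) and both B siRNAs lowered it (-0.45 and -0.49, adjusted p = 1.02e-05 and 6.54e-07). SNHG9 rose with siPARP1_A, siPARP1_B and siPARP2_A (0.82, 0.34 and 0.71, adjusted p = 1.66e-07, 0.00822 and 2.06e-06), the siPARP1_B call being lost without siPARP1_B replicate 2 (adjusted p = 0.0605), and did not pass with siPARP2_B (-0.12, adjusted p = 0.31). SNHG14 changed by -0.52 with siPARP1_A and by -0.38 with siPARP2_B (adjusted p = 2.6e-08 and 1.89e-06), but by 0.06 and -0.11 with siPARP1_B and siPARP2_A (adjusted p = 0.449 and 0.129). With siPARP1_A 2 of the 13 rose and 3 fell, beside 54.4% of all genes called, and with siPARP1_B 3 rose and 1 fell, beside 40.4%.

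**Figure D5:**
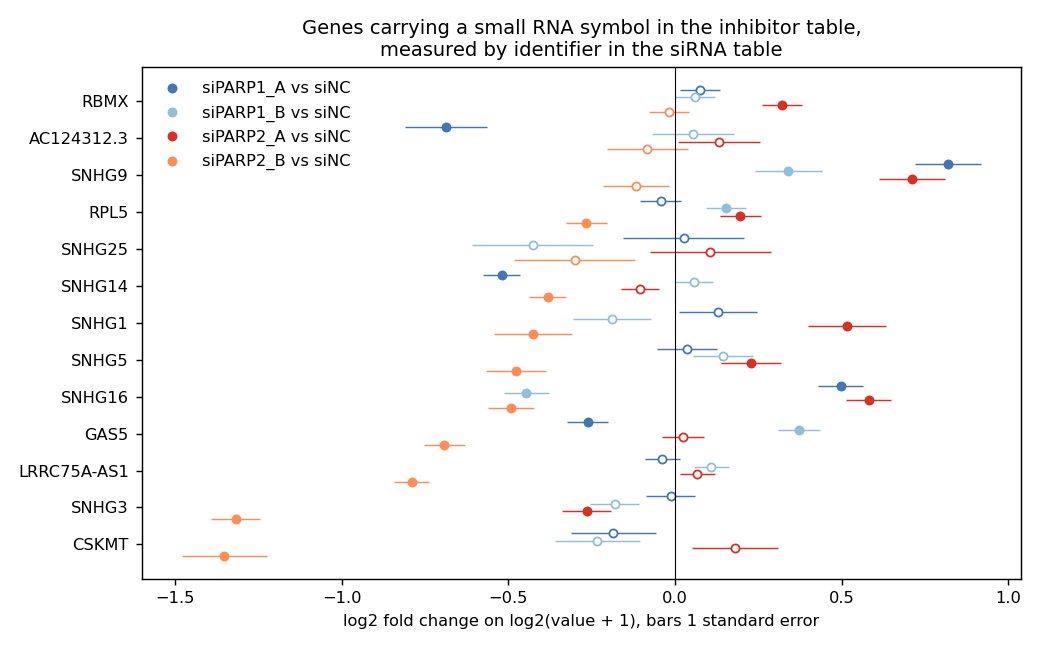
log2 fold change on log2(value + 1) in the siRNA table of the 13 genes that carry a small RNA symbol in the inhibitor table, for each siRNA against siNC, filled where the limma adjusted p is below 0.05, with bars of 1 standard error. With siPARP2_B 9 of 13 lie below 0 and pass, CSKMT and SNHG3 lowest at -1.35 and -1.32, and SNHG16 is higher with both A siRNAs and lower with both B siRNAs.

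A list of noncoding snoRNA host genes, chosen with earlier results of these data known, also had more members lower than higher with siPARP2_B: 13 of 18 fell and 1 rose (limma, median -0.42), beside 66.1% of all genes called (30.9% up, 35.2% down), among them EPB41L4A-AS1 (-0.79, adjusted p = 8.5e-08) and SNHG19 (-0.73, adjusted p = 3.55e-09). With siPARP2_A 7 of 18 rose and 1 fell, with siPARP1_A 4 rose and 4 fell, and with siPARP1_B 5 rose and 2 fell, beside 49.4%, 54.4% and 40.4% of all genes called. Against DMSO 2 of 19 rose and 7 fell with UPF1069, 3 rose and 6 fell with olaparib, and 8 rose and 4 fell with veliparib, beside 24.3%, 52.5% and 40.4%. Several of these genes are themselves rows described above.

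Genes for proteins that bind these RNAs were taken from lists chosen with earlier results of these data known. The counts below stand beside 24.3% of all genes called with UPF1069, 52.5% with olaparib and 40.4% with veliparib (limma). For siPARP2_A and siPARP2_B these shares were 49.4% and 66.1%. Of 9 C/D snoRNP genes, 4 fell with UPF1069 and 7 with olaparib, including FBL, the methyltransferase (olaparib -0.34, limma, adjusted p = 7.5e-08), and 3 rose and 2 fell with veliparib. With siPARP2_A 6 of 8 rose, NOP58, a core protein, most (0.74, adjusted p = 6e-10). Of 9 H/ACA snoRNP genes, 6 fell and 1 rose with olaparib, NAF1, an assembly factor, changing by -0.41 (adjusted p = 2.9e-05), and 6 rose with siPARP2_A. Of 8 signal recognition particle genes, 3 rose and 1 fell with veliparib, SRP54 by 0.19 (adjusted p = 0.00081). SRP9 fell by 1.01 on the log2 scale with siPARP2_B (adjusted p = 2.6e-13), where 3 of 7 rose and 3 fell. Of 7 genes of the 7SK particle and P-TEFb, 2 rose and 3 fell with veliparib, with HEXIM1, which inhibits P-TEFb, at -0.27 (adjusted p = 2.1e-05) and LARP7, which stabilises 7SK, at 0.27 (adjusted p = 0.0014).

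The genes that process and transcribe the RNAs were called in both directions over the comparisons, though some lists went a single way within a comparison. Of 10 RNase P and MRP protein genes, 1 rose and 1 fell with veliparib and 3 fell with olaparib (limma). Of 27 RNA polymerase III genes, which include those for 7SL, 7SK, RMRP and U6 transcription, 4 rose and 6 fell with veliparib, 4 rose and 12 fell with olaparib and 5 fell with UPF1069; MAF1, the repressor of the polymerase, changed by -0.44 with veliparib (adjusted p = 3.2e-08). Of 14 RNA polymerase I genes, which make the 28S precursor, 3 rose and 1 fell with veliparib, 1 rose and 8 fell with olaparib, and 2 rose and 2 fell with UPF1069. With siPARP2_A 9 of the 14 rose and 0 fell, POLR1E most (1.02, adjusted p = 3e-11). All these counts stand beside the shares of genes called given above for each comparison.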

How the data were processed

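Total RNA of 18 LNCaP libraries was sequenced. The inhibitor table holds CPM as deposited by the authors, and the siRNA table a normalised signal in reads per M as deposited by the authors. Per the submitters' processing notes, the build was hg19 and the tools were HTSeq 0.6.1, TopHat2 2.1.0, bcl2fastq 2.18 and edgeR 3.12.0, listed without roles. Dividing each library by the value of 1 read gave whole reads (within 0.01) for 100% of values. The tables were normalised apart and tested apart. Reads with several matches may be lost or split between copies, and strand handling is not given in the sources used here, so antisense rows cannot be told apart from their partners.

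Since the values are normalised, limma 3.58.1 (trend, 2-sided) was run on log2(value + 1) for features with a mean of at least 1, with all groups of a table in 1 fit and Benjamini-Hochberg adjustment over all features, threshold 0.05. Read counts recovered from the deposited values went into edgeR 4.0.16 and DESeq2 1.42.0 as alternatives. The other alternatives were a pseudocount of 0.25, a minimum mean of 0.2 or none, relative log expression factors, 2-group fits, a replicate block and each library left out. The code was tested on simulated data. Identifiers were matched without version to GENCODE release 29 (R 4.3.3, Python 3.11.15) for names, classes and sequences. Its GRCh38 positions were used only to place the named small RNAs within genes and to give chromosomes. No deposited column was left unused. The members and all lists were chosen with earlier results of these data known, so no list was tested as a whole. Values per library are given for the highest or main member rows, and partner genes are named among those called with the largest change per list and comparison. Each group has 2 libraries, and in the main fit the p-values rest on the spread within all groups of an experiment, moderated over genes. The total degrees of freedom were 21.6 for the inhibitors and 24.0 for the siRNAs. A row whose 2 libraries lie far apart in a group can therefore still be called. The median log2 difference between replicates was 0.093 with veliparib, against 0.0499 with DMSO, 0.0467 with UPF1069 and 0.0533 with olaparib. The shared spread can therefore understate the error of veliparib. With only veliparib and DMSO fitted, 1700 genes rose and 2623 fell, against 2291 and 3096 in the main fit.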

Additional observations from a re-analysis of the deposited data

How the results depend on the processing

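For called members, 496 recomputed log2 fold changes kept their call and direction, 88 missed the threshold and 0 changed sign; limma, edgeR, DESeq2 and left-out libraries are all among them. Where a count of called members moved by over 1.5 times, the cause was not tested. For olaparib against DMSO it was 15, but 8 in DESeq2 and 4 to 13 with 1 library left out, and for UPF1069 against DMSO 11, but 7 to 9 with 1 library left out. For UPF1069 against olaparib it was 5, but 2 in DESeq2, 9 with only the 2 groups fitted, and 3 to 6 with 1 library left out. Without a filter it was 26 for veliparib against olaparib and 26 for veliparib against UPF1069, where the main count was 16 in both. For siPARP1_A against siNC it was 0, but 1 without a filter. For siPARP2_A against siNC it was 0, but 1 with the minimum mean of 0.2 in limma or edgeR and 3 without a filter. For siPARP2_B against siNC it was 0, but 1 with a pseudocount of 0.25 and 3 with the minimum of 0.2 in limma or edgeR or without a filter. For siPARP1_A against siPARP1_B it was 1, but 3 without a filter, 0 in DESeq2, 0 in edgeR with the minimum of 0.2, and 0 with any 1 library left out. For siPARP2_A against siPARP2_B it was 1, but 3 without a filter and 2 in edgeR with that minimum. The summed member ratio was 1.08 for UPF1069 against DMSO, and 1.24 over the small RNA rows by identifier. Most of that small RNA rise, from 32.2 to 39.9 CPM, lay in SNORD3A, with means of 5.09 CPM with DMSO and 11.3 CPM with UPF1069. For veliparib the summed member ratio was 1.29, and 1.06 without the ribosomal RNA row.

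Replicate numbers did not pair the samples: deviations of same-numbered libraries correlated between -0.141 and 0.115. With a replicate block the counts were 11, 15 and 18 for UPF1069, olaparib and veliparib against DMSO and 0 for each siRNA against siNC. EdgeR with a minimum of 0.2, the sums by identifier and the sums as a share of reads were chosen after seeing the data. The median small RNA row had 53 reads over the 8 inhibitor libraries, which limits its precision.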

Other observations

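By identifier, 143 small RNA rows of the inhibitor table and 50 of the siRNA table lie outside the symbol rule, mostly because they carry no symbol (139 and 47), and 3 and 2 of them passed the minimum mean. RNA5-8SP6, annotated as a ribosomal RNA pseudogene, was highest with veliparib and with siPARP1_B; it was chosen after its values were seen. It stood at 1.42 and 1.502 CPM with UPF1069, 1.73 and 1.26 CPM with olaparib and 4.39 and 3.21 CPM with veliparib, against 0.83 and 1.21 CPM with DMSO (veliparib log2 fold change 1.25, limma, adjusted p = 4.77e-07). In the siRNA table it stood at 0.786 and 0.191 with siPARP1_A, 5.13 and 6.91 with siPARP1_B, 1.04 and 1.81 with siPARP2_A and 0.535 and 0.564 with siPARP2_B, against 0.52 and 0.287 normalised reads per M with siNC. The change was 2.32 with siPARP1_B and 0.78 with siPARP2_A (limma, adjusted p = 3.38e-09 and 0.00345). In the siRNA experiment RNA5-8SP6 passed the minimum mean of 1 only through the siPARP1_B libraries. The siPARP1_B test therefore concerns a row admitted by that group. The 28S rRNA row did not follow this order in the siRNA libraries, where siPARP1_B had the lowest values of the 4 siRNAs.

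RF00012, a snoRNA by its annotated type, followed another order than SNORD3A. It stood at 2.30 and 2.13 CPM with UPF1069, 2.60 and 2.91 with olaparib and 2.97 and 3.36 with veliparib, against 2.005 and 2.265 with DMSO. Veliparib passed (0.41, limma, adjusted p = 0.00677), but UPF1069 (0.04, adjusted p = 0.856) and olaparib (0.26, adjusted p = 0.0602) did not. With siPARP1_A it stood at 2.96 and 2.74 normalised reads per M, against 1.10 and 1.09 with siNC (0.88, limma, adjusted p = 0.00012). It did not pass with siPARP1_B, siPARP2_A or siPARP2_B (-0.18, 0.28 and 0.09, adjusted p = 0.42, 0.184 and 0.674).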
